A study of Eohaustorius estuarius with 16 samples.

Results

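The 100 contigs with the brightest signal in control animals were followed among the 8507 contigs measured in whole bodies of Eohaustorius estuarius, an amphipod crustacean that burrows in estuarine sand. A contig is an assembled stretch of transcript, and each was measured by 1 probe sequence printed on 1 or more spots. The members were the contigs with the highest mean level over the 8 control arrays, where a level is the log2 processed signal of a probe minus the 75th percentile of that array. A level of 0 is therefore the brightness below which 75 percent of an array's non-control spots fall. All 100 members were well above background on all 16 arrays and all were among the 6852 contigs tested. The levels in the control group chose the members, so they are given as a description.

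The control group held 8 whole-body samples from amphipods kept for 10 days in solvent-spiked sediment, and the cyfluthrin group held 8 from sediment spiked with a nominal 1.6 µg/kg of the pyrethroid insecticide cyfluthrin. All 16 samples carry the label of laboratory F. The labels do not say how many animals or which exposure containers a sample came from, so it is not known whether the samples are independent replicates of exposure. A p-value here sets a group difference against the spread between these samples only, and that spread may be partly technical. The number of arrays limits the precision.

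Pyrethroids hold voltage-gated sodium channels of nerve cells open and cause repeated firing. In whole bodies of crustaceans, the most abundant messenger RNAs commonly include those for ribosomal proteins, mitochondrial respiratory chain subunits, muscle proteins, the blood oxygen carrier haemocyanin and digestive enzymes. The files pair no contig with a gene, so none of these classes was assigned to any member and contigs are given by their identifiers. Probes bind with different strength, so the ranking is an order of brightness and not an order of transcript abundance. In whole bodies, fewer cells of a type and less RNA per cell cannot be told apart.

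Cyfluthrin replicates 5 and 6 differed by less than the measurement noise of their spots, with a typical squared difference of 0.531 times that given by the software's error estimates against 2.01 for the next closest pair, and they were averaged and counted as 1 sample. The comparison therefore used 8 control and 7 cyfluthrin samples. The arrays of the cyfluthrin group were brighter: the log2 75th percentile ran from 6.15 in control replicate 7 to 7.60 in control replicate 5, with a median of 7.01, and from 7.40 to 8.14 in the cyfluthrin samples, with a median of 7.74. The share of contigs with at least 50 percent of their spots well above background was 67.6% to 89.4% in controls and 77.6% to 83.2% with cyfluthrin. Each of the 2 slides held 4 arrays of each group.

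Member levels in the control group spanned a wide range at the top and a narrow one below. The mean levels ran from 4.16 to 9.46, with a median of 4.63 and quartiles of 4.36 and 5.06. Only 6 members had a mean above 6 and 27 a mean above 5. With cyfluthrin the member means ran from 3.17 to 8.97, with a median of 4.64. The lower edge of the list was dense: contig_727, contig_5992 and contig_31, ranked 98 to 100, had control means of 4.19, 4.17 and 4.16, and the next 3 contigs below the list, contig_822, contig_498 and contig_612, each had a mean of 4.16.

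The highest member, contig_42, was the brightest contig on every array, and its level depended on the slide. Its control level had a mean of 9.46 ± 0.83 (SD, n = 8), with a lowest value of 8.46, a median of 9.44 and a highest of 10.50. With cyfluthrin the mean was 8.97 ± 0.80 (SD, n = 7), with a lowest value of 8.12, a median of 9.01 and a highest of 10.10. That median is the averaged pair, which joins replicate 5 at 9.92 on slide 1 and replicate 6 at 8.09 on slide 2. The mean, the SD and the test below include this mixed value. The groups overlapped across nearly their whole range, and the difference of -0.50 (SE 0.39) did not pass limma's test (adjusted p = 0.363). Within each group the values fell apart by slide. The 8 arrays of slide 1 all gave higher levels than the 8 arrays of slide 2.

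Among all 8507 contigs, contig_42 was the only one with spots marked saturated by the scanner software, and both of its spots carried that mark on all 8 arrays of slide 2 and on no array of slide 1. The saturation value in the file headers was 650795 to 657666 on slide 1 and 65529 on slide 2. On slide 1 the processed signal of contig_42 ran from 102672 to 187112 in controls and from 174554 to 214815 with cyfluthrin. On slide 2 it ran from 60821 to 61905 in controls and from 60636 to 62095 with cyfluthrin, a 1.02-fold range over 8 arrays. The coefficient of variation between arrays was 25.1% in controls and 8.83% with cyfluthrin on slide 1, and 0.81% and 1.02% on slide 2. The second brightest contig on any array reached 37206 on slide 1 and 49114 on slide 2, below both saturation values. The slide 2 levels of contig_42 are thus lower limits, and their spread follows the percentile subtracted from a nearly fixed signal.

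**Figure D1:**
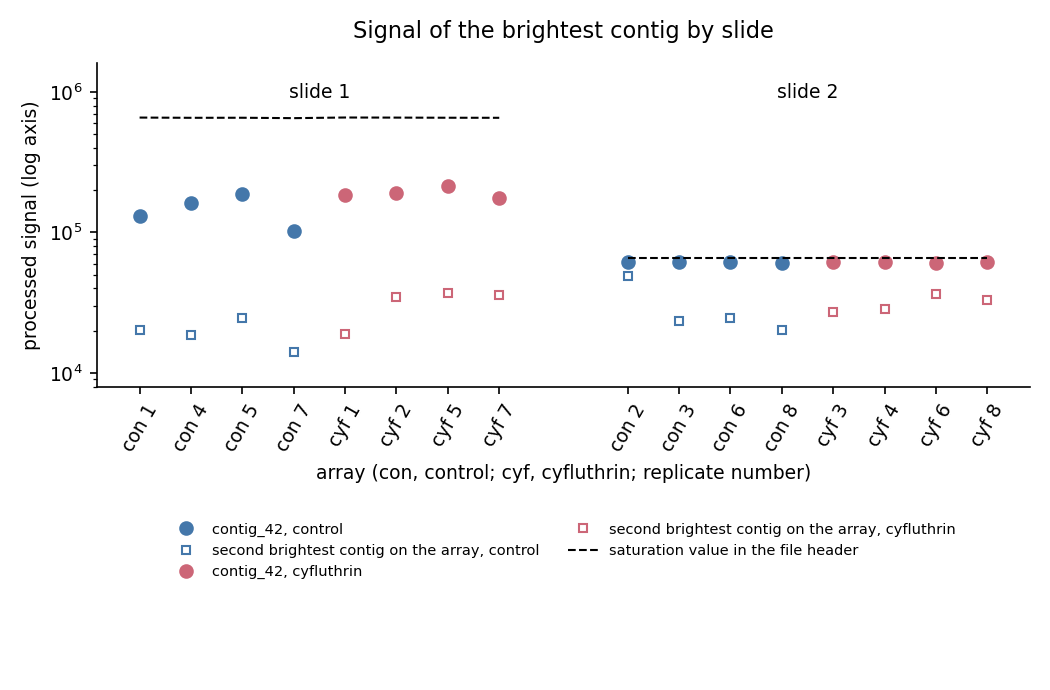
Processed signal of contig_42 (filled circles) and of the second brightest contig (open squares) on each of the 16 arrays, by slide, on a log axis, with the saturation value of each file header as a dashed line. On slide 1 the contig lies between 102672 and 214815, well under the line, and on slide 2 all 8 arrays lie between 60636 and 62095, at the line.

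A model with slide as a tested term was added after the data were seen. Of 6852 contigs exactly 1 differed between the slides at an adjusted p below 0.05 by limma (0.0146%), and it was contig_42, whose saturation had prompted the fit. Since its values on slide 2 are lower limits, the slide difference is that of the recorded values and not of the transcript. Its level on slide 2 minus that on slide 1 was -1.54 (SE 0.14, adjusted p = 0.000178) with the array of cyfluthrin replicate 5 standing for the averaged pair, and -1.53 (adjusted p = 0.000171) with that of replicate 6. The median slide difference of the 100 members was -0.11 in the first fit and -0.068 in the second, against -0.062 and -0.052 for all tested contigs. No member had a cyfluthrin response that differed between slides at an adjusted p below 0.05 in limma's interaction term, and 3 members in the first fit and 1 in the second did so at an unadjusted p below 0.05, where 4.09% and 3.23% of tested contigs did.

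Taken by itself, slide 2 gave a difference in level of -0.54 for contig_42 with cyfluthrin, which passed limma's threshold (adjusted p = 0.049), while the log2 signal itself differed by 0.00076 and the 75th percentile of the arrays by 0.54. That difference in level is the difference in percentile. With slide as a block over both slides the adjusted p was 0.0237 or 0.0176, depending on the array that stood for the pair, in a fit that includes the saturated arrays. On slide 1, where the probe was not saturated, the log2 signal was 0.43 higher with cyfluthrin, the percentile was 0.87 higher and the difference in level was -0.44 (adjusted p = 0.333). The change of contig_42 with cyfluthrin was therefore measured only on slide 1, with 4 arrays of each group, and did not pass there. No tested contig passed on slide 1 alone, so that outcome does not set contig_42 apart.

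The members whose pattern over the 15 samples was most like that of contig_42, after the group means were taken off, were contig_1025 with a Pearson r of 0.64 and contig_4242 with an r of 0.62. These correlations share the arrays' scaling and include the saturated arrays of slide 2. contig_1025 had control levels of 4.20 to 5.64 with a median of 4.89 and cyfluthrin levels of 2.81 to 5.58 with a median of 3.91, and its change of -0.84 (SE 0.35) did not pass (adjusted p = 0.0807) but did without cyfluthrin replicate 1 (adjusted p = 0.0153), with array weights (adjusted p = 0.0395) and with slide as a block when replicate 5 stood for the pair (adjusted p = 0.0291). contig_4242 had control levels of 4.64 to 5.18 and cyfluthrin levels of 4.76 to 5.15, all inside the control range (change 0.04, adjusted p = 0.834), and passed with E1A scaling alone (0.52, adjusted p = 0.0214).

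Below contig_42, the other 9 of the 10 highest contigs also did not pass the test between groups on the 75th percentile scale. contig_2392 had control levels of 6.72 to 7.41 with a median of 7.19, and cyfluthrin levels of 6.81 to 7.34 with a median of 7.04. The cyfluthrin samples all lay inside the control range, with a change of -0.04 (adjusted p = 0.853). contig_407 had control levels of 6.23 to 7.33 with a median of 6.89, and cyfluthrin levels of 6.33 to 7.33 with a median of 6.48. Its groups overlapped throughout, and 1 cyfluthrin sample, replicate 2, stood at the top of the cyfluthrin range (change -0.23, adjusted p = 0.390).

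contig_8297 was the most variable of all members within the control group. Its control levels ran from 4.71 to 8.14 with a median of 6.84 and an SD of 1.09, and its cyfluthrin levels from 4.06 to 6.89 with a median of 6.76 and an SD of 1.03. The change of -0.50 (SE 0.51) was smaller than the SD within either group (adjusted p = 0.489). contig_530 had control levels of 5.85 to 7.33 with a median of 6.67 and cyfluthrin levels of 6.15 to 6.96 with a median of 6.52, and its cyfluthrin samples all lay inside the control range (change -0.20, adjusted p = 0.459). contig_4126 had control levels of 6.11 to 7.54 with a median of 6.58 and cyfluthrin levels of 5.96 to 7.38 with a median of 6.80, again overlapping (change 0.10, adjusted p = 0.775). With E1A spike-in scaling its change was 0.58 and passed (adjusted p = 0.0326).

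contig_586 had control levels of 5.12 to 7.11 with a median of 5.96, and cyfluthrin levels of 3.87 to 6.67 with a median of 5.16. It had the largest difference among the 10 highest, -0.70, with an SE of 0.40 (adjusted p = 0.204), and the groups overlapped. It passed on slide 2 alone, with a change of -1.09 (adjusted p = 0.0428) against -0.19 on slide 1 (adjusted p = 0.892), and with array weights (-0.92, adjusted p = 0.0415). contig_4644 had control levels of 5.47 to 6.71 with a median of 5.84 and cyfluthrin levels of 5.22 to 6.41 with a median of 5.36 (change -0.45, adjusted p = 0.132), and it passed without cyfluthrin replicate 2 (adjusted p = 0.0308) and in the fit with slide column as covariate when replicate 5 stood for the pair (-0.91, adjusted p = 0.0491). contig_8079 came closest to the threshold: its control levels ran from 5.50 to 6.26 with a median of 5.88 and its cyfluthrin levels from 4.78 to 5.94 with a median of 5.28 (change -0.50, SE 0.20, adjusted p = 0.0637). It passed without control replicate 1 (adjusted p = 0.0494), without cyfluthrin replicate 1 (adjusted p = 0.0369) and without the averaged pair of cyfluthrin replicates (adjusted p = 0.0369), and also with quantile normalization (adjusted p = 0.0405), on the authors' deposited values (adjusted p = 0.0457) and with slide as a block when replicate 6 stood for the pair (adjusted p = 0.0463). contig_1481 had control levels of 5.48 to 6.09 with a median of 5.76 and cyfluthrin levels of 5.62 to 6.26 with a median of 6.04, and was the highest-ranked contig after contig_4126 whose mean was above that of controls (change 0.24, adjusted p = 0.170). Its change was 0.72 with E1A scaling (adjusted p = 0.00344) and 0.52 with normexp background correction (adjusted p = 0.0125), and passed in both.

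**Figure D2:**
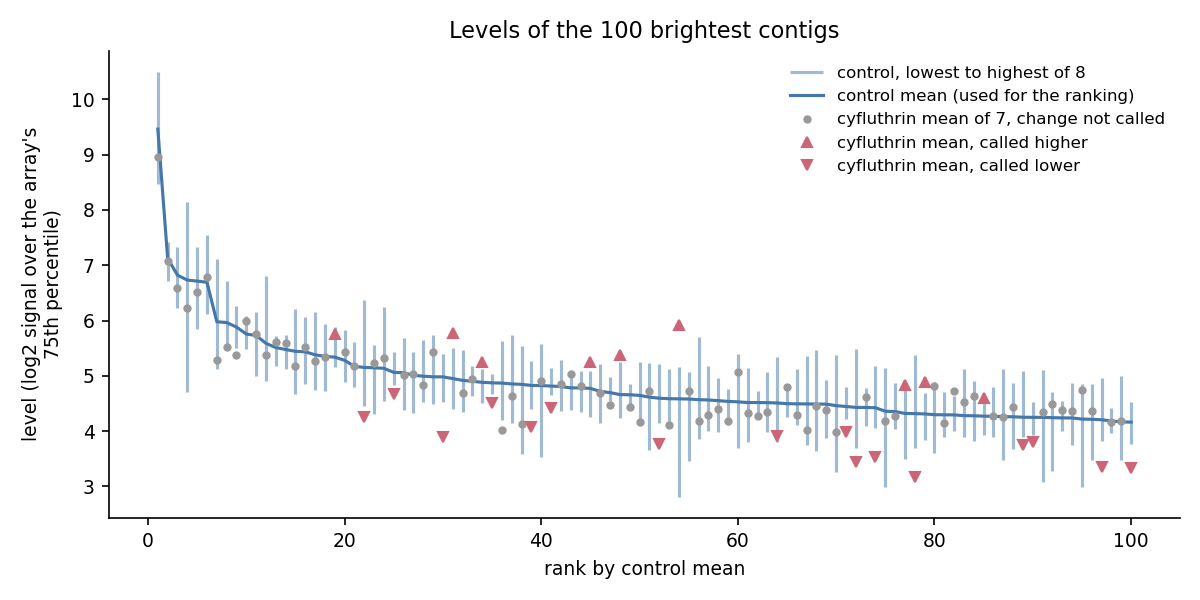
Level (log2 processed signal minus the array's 75th percentile) of the 100 members by rank, with a vertical line from the lowest to the highest of 8 control samples, a curve through the control means and a symbol for the mean of 7 cyfluthrin samples. The control mean drops from 9.46 at rank 1 to 4.16 at rank 100, and none of the 10 highest contigs carries a triangle, the mark of a called member.

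With cyfluthrin, 9 of the 100 members were called higher, where 7.47% of all tested contigs were, and 16 were called lower, where 22.5% of all tested contigs were (limma, adjusted p below 0.05). In either direction 25 members were called, where 30% of all tested contigs were. The highest-ranked called members were contig_2945 at rank 19, called higher, and contig_5603 at rank 22, called lower, named here after their values were seen. The median change of the members was -0.043 against -0.16 for all tested contigs, and 56 of the 100 lay below 0. The control levels that chose the members also enter this change, so it is not independent of the choice, and no test was made of the list against other contigs. With the array's column on the slide as a covariate the counts were 2 higher and 9 lower with the array of cyfluthrin replicate 5 standing for the averaged pair, where 4.03% and 12.7% of tested contigs were called, and 1 and 6 with that of replicate 6, where 3.24% and 7.75% were. Without control replicate 3, and likewise without cyfluthrin replicate 7, 5 members were called higher, where 5.82% and 5.63% of tested contigs were.

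The changes were small. The 9 called higher had changes of 0.33 to 1.34 with a median of 0.51, a 1.43-fold rise, and the 16 called lower had changes of -1.15 to -0.36 with a median of -0.79, a 1.73-fold fall. Of the called members, 1 was at least 2-fold higher, where 1.84% of tested contigs were, and 2 were at least 2-fold lower, where 4.44% were. The groups did not overlap for 1 member that was higher, where 1.36% of tested contigs did not overlap in that direction, and for 5 that were lower, where 4.77% did not.

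contig_2356 had the largest rise. Its control levels ran from 2.82 to 5.17 with a median of 4.83, and its cyfluthrin levels from 5.54 to 6.31 with a median of 5.92. Every cyfluthrin sample lay above every control, and the lowest control, replicate 7, stood apart from the others, which began at 4.19. The change was 1.34 (SE 0.30), a 2.53-fold rise (limma, adjusted p = 0.00584), and it took the contig from rank 54 in controls to rank 9 with cyfluthrin. Without control replicate 7 the change was 1.09 (adjusted p = 0.00145). On slide 1 alone, where no contig passed, the change was 1.74 (adjusted p = 0.120) and on slide 2 alone 1.04 (adjusted p = 0.0205).

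contig_1961 rose from rank 31 to rank 10. Its control levels ran from 4.40 to 5.50 with a median of 4.94, and its cyfluthrin levels from 5.29 to 6.18 with a median of 5.89. The groups overlapped at their edges, and the change was 0.82 (SE 0.18), a 1.77-fold rise (adjusted p = 0.00579). With the array's column on the slide as a covariate the change was 0.54 (adjusted p = 0.161) with replicate 5 standing for the pair and 0.58 (adjusted p = 0.111) with replicate 6, and the call was lost. It also missed the threshold on slide 1 alone (adjusted p = 0.117), as every tested contig did, and on slide 2 alone (adjusted p = 0.0860).

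contig_3528 had the largest fall. Its control levels ran from 3.70 to 5.37 with a median of 4.17, and its cyfluthrin levels from 2.85 to 3.46 with a median of 3.17. All cyfluthrin samples lay below all controls, with a change of -1.15 (SE 0.21), a 2.21-fold fall (adjusted p = 0.00210), and the contig moved from rank 78 to rank 306, the lowest rank of any member with cyfluthrin. contig_5468, printed on a single spot, had control levels of 4.53 to 5.40 with a median of 4.96 and cyfluthrin levels of 3.50 to 4.24 with a median of 3.94. Its groups did not overlap either, with a change of -1.08 (SE 0.16), a 2.12-fold fall (adjusted p = 0.000641), and it moved from rank 30 to rank 151. On slide 1 alone, where no contig passed, contig_3528 and contig_5468 had limma adjusted p = 0.121 and 0.113. On slide 2 alone both passed (adjusted p = 0.0240 and 0.0162).

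Small changes were also called where replicates lay close together. contig_4952 had the smallest SD of any member in controls, with a mean of 4.87 ± 0.12 (SD, n = 8) against 4.51 ± 0.16 (SD, n = 7) with cyfluthrin, and its change of -0.36 (SE 0.11) passed (adjusted p = 0.0204). That call was lost under median, E1A and normexp scaling, and with E1A the sign turned. It was also lost on slide 1 alone (limma, adjusted p = 0.314), where no contig passed, and on slide 2 alone (adjusted p = 0.0816). Of 36 alternative settings, 8 lost the call with the sign kept and 1 turned the sign. contig_3883, with the second smallest control SD, had a mean of 4.66 ± 0.13 in controls and 4.44 ± 0.21 with cyfluthrin, and its change of -0.22 did not pass (adjusted p = 0.154), except with quantile normalization (adjusted p = 0.0348) and on the authors' deposited values (adjusted p = 0.0392). At the edge of the list, contig_31 at rank 100 fell by 0.84 on the log2 scale (SE 0.19, adjusted p = 0.00660). Its call was lost with E1A scaling (-0.36, adjusted p = 0.169), with the slide column as a covariate (adjusted p = 0.115 and 0.138) and on slide 1 alone (adjusted p = 0.199). contig_612, just below the list, rose by 0.45 (adjusted p = 0.0368).

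**Figure D3:**
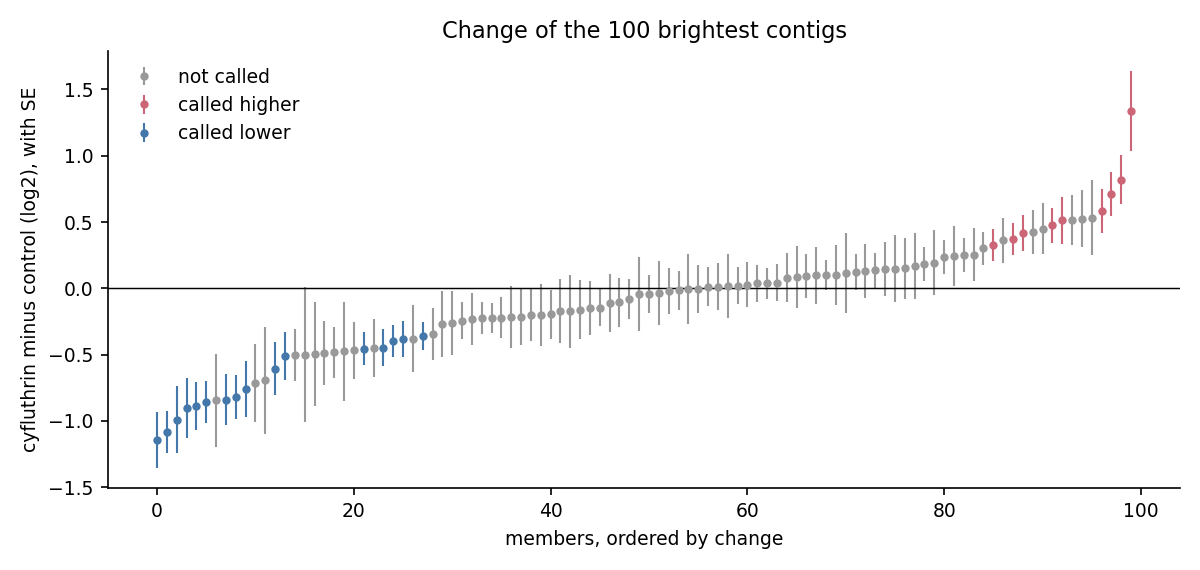
Change with cyfluthrin (log2, cyfluthrin minus control) of the 100 members in order of size, with bars of 1 SE and colours for members called higher, called lower or not called. The 9 called higher lie between 0.33 and 1.34, the 16 called lower between -1.15 and -0.36, and the median of all members is -0.043.

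All 25 called members had the same sign on both slides, as did all 2055 called contigs in the whole table, since the calls were made on the arrays of both slides together. Of all 100 members, 78 had the same sign on both slides, against 78.7% of all tested contigs. On slide 1 alone no member and no contig passed the adjusted threshold in either direction (0% in limma). There, 7 members were higher and 9 lower before p-values were adjusted (p below 0.05), where 4.96% and 17.3% of tested contigs were. On the arrays of slide 2 alone 2 members were called higher and 11 lower, where 4.44% and 9.81% of tested contigs were, and before adjustment 9 were higher and 27 lower, where 11.8% and 23.7% were.

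The counts depended on which samples chose the members. When the 100 brightest contigs of the cyfluthrin samples were taken instead, 24 were called higher and 3 lower, with a median change of 0.15. When all samples chose them, 16 were called higher and 7 lower, with a median change of 0.039. In both cases the fit is the one in which 7.47% of tested contigs were called higher and 22.5% lower. Choosing on the controls of 1 slide and comparing on the other slide separated the choice from the comparison. Members chosen on slide 1 controls and compared on slide 2 gave 1 call higher and 11 lower, where 4.44% and 9.81% of tested contigs were called, with a median change of -0.088. Members chosen on slide 2 controls and compared on slide 1 gave none in either direction, as did all contigs on that slide (limma, 0% called), with a median change of -0.032.

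The scale on which arrays were made comparable set the split of calls. Scaled to the array median, 13 members were called higher and 8 lower, where 10.5% and 10.6% of tested contigs were. Quantile normalization gave 3 higher and 20 lower, where 8.42% and 12.2% were. Scaling to the E1A spike-in, an RNA added to each labelling reaction as a reference, gave 27 higher and 2 lower, where 20.6% and 2.2% were. Background correction by normexp gave 23 higher and 8 lower, where 8.64% and 44.6% were, and the authors' deposited value table gave 4 higher and 21 lower, where 8.54% and 12.2% were. The median change of the members was 0.13 with the array median, -0.13 with quantile normalization, 0.44 with E1A and 0.23 with normexp. The corresponding medians of all tested contigs were 0.0074, -0.025, 0.32 and -0.37. Members called under all 5 of the scalings (the 75th percentile over all spots, that over the contigs detected on all arrays, the median, quantile and E1A) were contig_2356, contig_1961 and contig_1203 upward and contig_3528 and contig_5468 downward, and no member was called in opposite directions. contig_1203 was named after its values were seen.

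**Figure D4:**
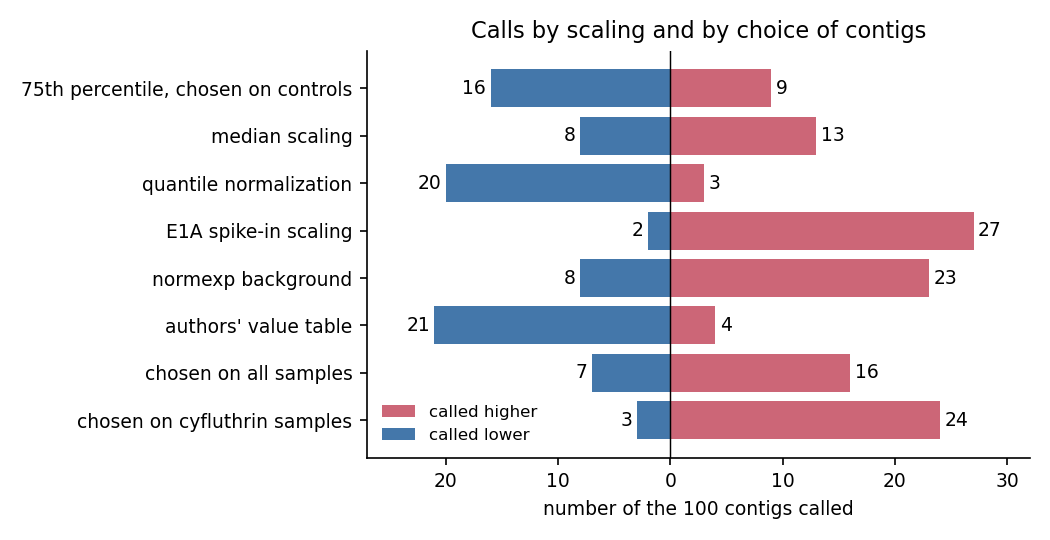
Number of members called higher (to the right of 0) and lower (to the left of 0) at an adjusted p below 0.05 under each scaling, background correction and choice of members. The split runs from 27 higher and 2 lower with E1A scaling to 3 higher and 20 lower with quantile normalization.

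Most of the list was bright in both groups. Of the 100 members, 74 were also among the 100 brightest contigs of the cyfluthrin samples, 21 followed within the first 200 there, and 5 ranked lower still. The 26 contigs that took their place had control ranks down to 350. All 9 members called higher remained in the cyfluthrin list, while 13 of the 16 called lower left it and 3 remained. On single arrays, 79.75 ± 5.42 (SD, n = 8) of the members were among the array's own 100 brightest contigs in controls, from 71 in replicate 7 to 87 in replicate 3, and 66.1 ± 5.36 (SD, n = 7) with cyfluthrin, from 60 in replicate 3 to 75 in replicate 2. The choice of members on control levels raises the control value here, and its part in the difference between the groups was not tested. There were 31 members among the 100 brightest of every array.

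Lists of equal size drawn from 4 arrays each give the overlap without that choice. The lists of the controls on slide 1 and on slide 2 shared 89 of 100 contigs, and those of the cyfluthrin arrays on the 2 slides shared 81, with 1 array of the alike pair on each slide. Between a control and a cyfluthrin list, 74, 65, 79 and 70 contigs were shared in the 4 combinations of slides.

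The members took up a large share of the summed signal of all contigs. That share was 29.1% ± 2.20 (SD, n = 8) in controls, from 26.6% in replicate 2 to 33.0% in replicate 7, and 26.5% ± 2.29 (SD, n = 7) with cyfluthrin, from 24.2% in replicate 3 to 30.4% in replicate 2. Over both slides together the groups overlapped, and the choice of members on control levels raises the control value. On slide 1 the share was 30.5% ± 2.35 in controls and 28.4% ± 2.01 with cyfluthrin, and on slide 2 it was 27.8% ± 1.01 and 24.9% ± 0.81. The groups overlapped on slide 1 but not on slide 2, where the lowest control array had 26.6% and the highest cyfluthrin array 25.9%. Without contig_42, whose signal is a lower limit on slide 2, the share was 24.9% ± 1.62 in controls and 23.4% ± 1.49 with cyfluthrin. By slide it was 24.4% and 23.8% on slide 1, and 25.4% and 23.2% on slide 2. On slide 1, contig_42 alone made up 7.96% of the control signal and 6.02% of the cyfluthrin signal. After normexp background correction the share of all members averaged 27.1% over the control samples (SD 4.46, n = 8). The cyfluthrin samples then averaged 26.2% (SD 2.30, n = 7). Slide 1 turned in direction, with means of 27.0% for control arrays and 28.2% for cyfluthrin arrays, while slide 2 gave 27.1% and 24.5%. Control replicate 4, on slide 1, moved from 28.1% to 17.1%.

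The median SD between spots of a probe on an array was 0.035 for members and 0.078 for all tested contigs. Between samples the median SD was 0.38 in controls and 0.30 with cyfluthrin for members, 0.37 and 0.31 for the 100 contigs next in rank, and 0.43 and 0.36 for all tested contigs. The share called in either direction was 25% for members, 23% for the next 100 contigs, 28.7% from there to rank 500, 26.2% from there to rank 1000, 28.1% from there to rank 2000 and 31.1% below that. The median change was -0.0034 in the next 100 contigs and -0.23 below rank 2000. These shares were not tested against each other.

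On the array, 74 members were printed on 2 spots and 26 on 1, and none was among the 50 contigs printed 10 or more times. Contig identifiers with a number of 1000 or less made up 31 of the 100 members and 11.6% of all contigs, and the median number was 2413 for members and 4312 for all. What the numbering stands for is not given in the sources used here.

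Members moved together across samples in a few sets. After the group means were taken off, the median Pearson r over the 4950 pairs of members was 0.24 across the 15 samples, with quartiles of -0.10 and 0.52, and 59 pairs had an r above 0.9. Among the next 100 contigs the median was 0.16 and 31 pairs were above 0.9. All samples share the arrays' scaling, so these values are a description. Linking pairs above 0.9 gave sets of 14, 13, 9, 5 and 2 members. A member joined a set through 1 such link, so not all pairs within a set lay above 0.9. The lowest r within the sets of 14, 13, 9 and 5 was 0.56, 0.54, 0.57 and 0.86, and the median r was 0.84, 0.82, 0.84 and 0.90. Removing group means takes out the average difference between the groups, while any variation in response among the cyfluthrin samples stays in.

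In the set of 9 members, which includes contig_3528, contig_5468 and contig_5603, 8 of the 9 were called lower. Among all 100 members 16 were called lower, and among all tested contigs 22.5% were. The set was chosen on these samples, so this is a description, and the changes ran from -1.15 to -0.47 with a median of -0.89. The 1 member of the set not called was contig_5259, named after its values were seen. Within controls the set was highest in replicate 7, at 0.84 above the group mean, and in replicate 8, at 0.31 above, and lowest in replicate 5, at -0.51. Within the cyfluthrin samples it was lowest in replicate 7, at -0.34. Control replicate 7 had the dimmest and control replicate 5 the brightest array of the controls by the 75th percentile (6.15 and 7.60), and cyfluthrin replicate 7 the brightest of all (8.14). The part of array brightness in this set's change was not tested. Scaled to the median 7 of the 9 were called lower, with quantile normalization 8, with normexp 7 and with E1A 2, and the median change with E1A was -0.41.

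The set of 14 members, which includes contig_2392 and contig_4644, had none called and a median change of -0.038. Under the other scalings, background correction and deposited values none was called either (limma), while the median ran from -0.10 with quantile normalization to 0.44 with E1A. It was highest in cyfluthrin replicate 2, at 0.87 above the group mean, and in control replicates 7 and 8, each at 0.53, and lowest in control replicate 5, at -0.55. The set of 13 members, which includes contig_530, also had none called, with a median change of 0.079. With E1A 2 were called higher with a median of 0.56, with normexp 2, with median scaling 1, and with quantile normalization none with a median of -0.089. It was highest in control replicate 1, at 0.62, and lowest in control replicate 7, at -0.71, so these sets stood at opposite ends in control replicate 7. The set of 5, which includes contig_4952 and contig_3883, had 3 called lower with a median change of -0.36. With E1A scaling none of the 5 was called (limma) and the median was 0.12, with median scaling none was called and it was -0.19, and with quantile normalization all 5 were called lower.

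**Figure D5:**
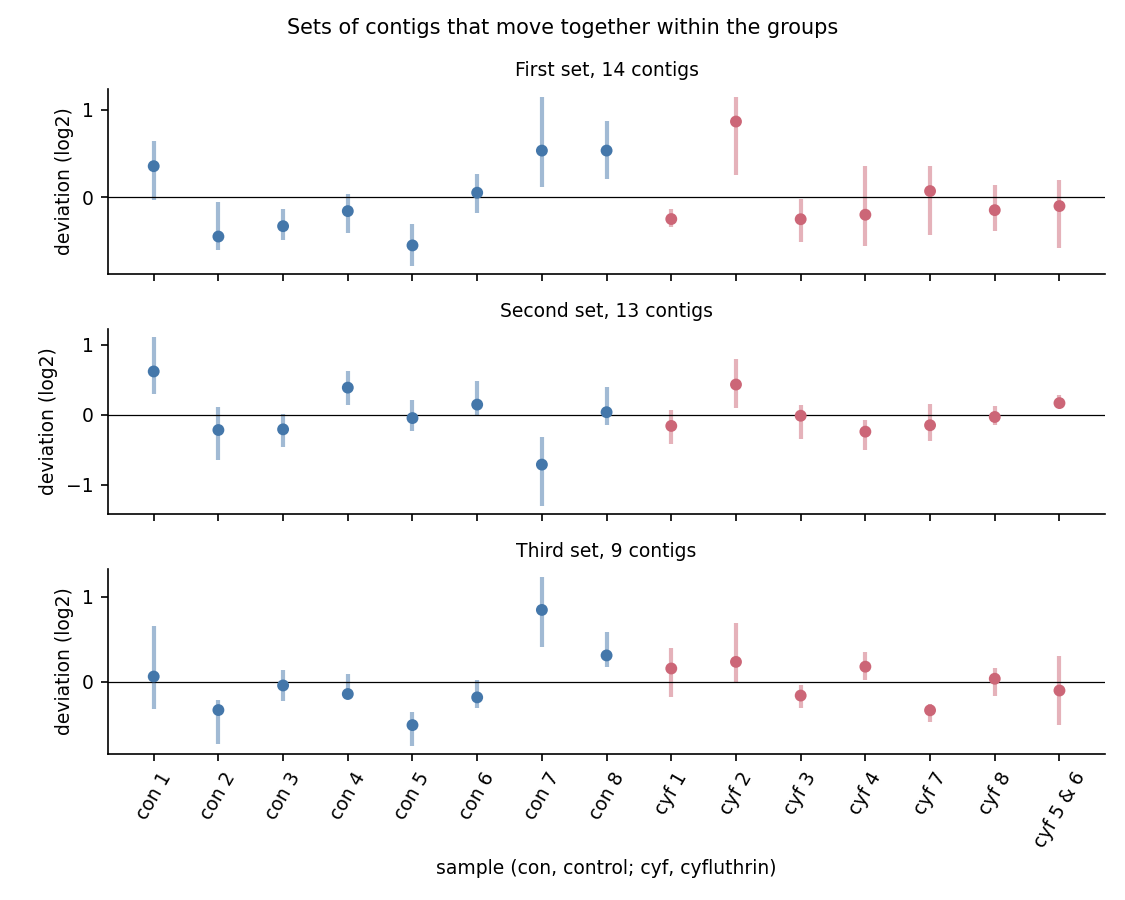
Deviation from the group mean (log2) in each of 8 control and 7 cyfluthrin samples for the 3 largest sets of members that moved together, with a point at the mean of the set's contigs and a line from the lowest to the highest contig. The set of 9 is highest in control replicate 7 at 0.84, where the set of 13 is lowest at -0.71, and the set of 14 is highest in cyfluthrin replicate 2 at 0.87.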

How the data were processed

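Per the labels' protocols, RNA came from RNeasy columns (1 unnamed laboratory used another reagent) and was labelled with Cy3 by Agilent's Low Input Quick Amp kit. The deposited intensity values are the processed signal of each spot, extracted with Agilent Feature Extraction 11.5.1.1 per the file headers and with 9.1 per the submitters' processing notes. The authors' deposited value table holds log2 values that, by comparison with the scanner values (r 0.986 to 1.00 per array), match quantile-normalized values centred on each probe's median. Its column medians ran from -0.11 to 0.12, its steps are inferred and not stated, and it was used as an alternative only.

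From 15744 spots per array, 536 control spots were left out, as were the 4 to 47 spots per array flagged as outliers. Log2 signals were reduced by the array's 75th percentile and averaged over a probe's spots. A contig was tested if at least 50 percent of its spots were well above background on at least 8 of 16 arrays, which left 6852 of 8507. Cyfluthrin and control levels entered limma 3.58.1 (functions lmFit and eBayes in R 4.3.3, two-sided), with p-values adjusted by Benjamini-Hochberg over all tested contigs at 0.05. The fit was tested on simulated data of 6852 contigs. There 67 contigs were given a 1.5-fold, 67 a 2-fold and 66 a 4-fold change. The fit recovered 13.4%, 73.1% and 92.4% of them, and 3 of 122 calls were false. In the measured data 30% of tested contigs were called, and recovery with so large a share of contigs changed was not tested. Sets were linked at a Pearson r above 0.9 with networkx 3.6.1, and figures were drawn with matplotlib 3.10.9.

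E1A levels are the mean log2 signal of 7 of 10 spike-in probes. Samples were grouped by their titles. The members and lists were chosen with earlier results of these data known. Named contigs are the 10 brightest, the 3 members just inside and the 3 contigs just outside the list, the 2 largest called changes each way, the 2 largest and 2 smallest control SDs, and the 2 most like the brightest. Lists of gene classes could not be applied without gene names. Alternatives were other scalings and background corrections, filters on dim probes, array weights, slide, slide column and replicate number as terms, each sample left out, and other choices of members.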

Additional observations from a re-analysis of the deposited data

Results flagged for a closer look

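Screened were 58 sets of values, 48 of levels (24 named contigs in each group) and 10 of 5 per-sample summaries of the members, such as their share of the signal. Of these, 5 sets, all of contig levels, had 1 sample standing far from the others, where chance gives about 1 in 20. In cyfluthrin replicate 2, 3 contigs stood high: contig_407 was at 7.33 while the other cyfluthrin samples lay between 6.33 and 6.68, contig_4644 was at 6.41 while the others lay between 5.22 and 5.63, and contig_822 was at 4.80 while the others lay between 3.37 and 3.78. In cyfluthrin replicate 7, contig_8297 was at 4.06 while the others lay between 5.82 and 6.89. In control replicate 7, contig_2356 was at 2.82 while the other controls lay between 4.19 and 5.17.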

How the results depend on the processing

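Against 9 members called higher and 16 lower with a median change of -0.043, median scaling gave 8 lower, quantile normalization 3 higher, and the values deposited by the authors 4 higher. E1A scaling gave 27 higher, 2 lower and a median of 0.44, and normexp gave 23, 8 and 0.23. Array weights gave 14 higher, in a fit that called 738 of 6852 tested contigs higher against 512 in the main fit. The slide column as a covariate gave 2 higher and 9 lower with cyfluthrin replicate 5 standing for the averaged pair, and 1 and 6 with replicate 6. Slide 1 alone gave 0 higher and 0 lower (limma; 7 and 9 at an unadjusted p below 0.05), and slide 2 alone gave 2 higher. Choosing members on the cyfluthrin samples gave 24 higher, 3 lower and a median of 0.15, choosing on all samples gave 16 and 7, choosing on slide 2 controls and comparing on slide 1 gave 0 and 0, and the reverse gave 1 higher. Taking the 50 brightest gave 5 and 6, and the 200 brightest gave 19 and 29, in the fit that called 7.47% and 22.5% of tested contigs. The change of contig_4952 turned from -0.36 to 0.12 with E1A scaling (adjusted p = 0.610). The causes were not tested.

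Leaving out each sample in turn gave 5 to 11 members called higher, 11 to 19 lower and a median change of -0.14 to -0.00017. The 11 called higher came without control replicate 1, where 548 of 6852 tested contigs were. The 11 called lower came without cyfluthrin replicate 7, where 1197 contigs were, and the 19 without cyfluthrin replicate 2, where 1644 were. Without control replicate 3 and without cyfluthrin replicate 7 there were 5 higher, where 5.82% and 5.63% of tested contigs were. Same-numbered samples of the groups did not deviate together, with r from -0.67 to 0.47 over the 8 numbers. No control sample correlated best with the cyfluthrin sample of its own number. The labels do not say what the numbers stand for, and such correlations cannot settle whether same-numbered samples shared a container or a batch. A replicate block gave 2 higher and 6 lower with replicate 5 standing for the pair, where 3.27% and 10.6% of tested contigs were called, and 2 and 8 with replicate 6, where 3.53% and 10.7% were. Counts moved by no more than 1.5 times with slide as a block, the pair as 2 samples or left out, outlier spots kept, saturated spots left out, eBayes with trend, and other filters on dim probes. Depth has no counterpart on arrays, and saturation limits contig_42 on slide 2.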
